A study of Rattus norvegicus with 8 samples.

Results

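The 9 intermediate filament genes of brain glia and neurons were followed in the rat hypothalamus after retinoic acid (RA), out of 15159 genes with a named probe. They were defined by gene name, with earlier results of these data known, 4 as filaments of glia and their precursors (*Gfap*, *Vim*, *Nes* and *Synm*) and 5 as filaments of neurons (*Nefl*, *Nefm*, *Nefh*, *Ina* and *Prph*). Male F344 rats (strain F344N in the labels) held in short days (SD) received an injection of all-trans RA or vehicle into the third ventricle, and hypothalamic blocks including the arcuate nuclei were frozen the day after. Age was not given in the sources used here. The labels give RA at 1e-05 M and saline as vehicle, whereas the methods name a higher concentration for these rats and DMSO in saline, so that the dose is uncertain. Every rat, vehicle controls included, had an injection into the brain, and no uninjected rats were among the arrays. Each of the 8 two-colour arrays, numbered here as in the labels, carried RNA of an RA rat and of a vehicle rat in different dyes, and the 4 rats of each group were measured in both dyes. RA was in Cy5 on arrays 1, 3, 6 and 8 and in Cy3 on arrays 2, 4, 5 and 7.

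Intermediate filaments are rope-like polymers that give cells mechanical strength, and each cell type builds them from its own set of subunits. Astrocytes use GFAP and vimentin, and a rise of GFAP is the classic sign of a reactive astrocyte. Tanycytes and ependymal cells of the third ventricle also contain vimentin, and some contain nestin. Neurons build neurofilaments from a light, a medium and a heavy chain together with alpha-internexin, mainly in axons.

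The windows around the transcription start of the 4 glial genes are shown, since *Gfap* and *Vim* rose on these arrays while *Nes* and *Synm* did not pass the test. Each runs from 250 bases before to 50 bases after the start in the RefSeq annotation of GRCr8, 5′ to 3′ on the strand of the gene. They lie at chr10:88361612-88361911 (minus strand) for *Gfap*, chr17:81577011-81577310 (plus strand) for *Vim*, chr2:175736338-175736637 (plus strand) for *Nes* and chr1:130773775-130774074 (minus strand) for *Synm*. Capitals mark every match, on either strand, to the motifs described next.
Gfap: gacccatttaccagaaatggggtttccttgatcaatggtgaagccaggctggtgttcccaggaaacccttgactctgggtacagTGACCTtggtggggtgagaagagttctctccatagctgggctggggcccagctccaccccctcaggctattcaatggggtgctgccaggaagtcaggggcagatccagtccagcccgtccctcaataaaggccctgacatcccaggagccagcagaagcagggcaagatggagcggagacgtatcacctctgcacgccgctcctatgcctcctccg
Vim: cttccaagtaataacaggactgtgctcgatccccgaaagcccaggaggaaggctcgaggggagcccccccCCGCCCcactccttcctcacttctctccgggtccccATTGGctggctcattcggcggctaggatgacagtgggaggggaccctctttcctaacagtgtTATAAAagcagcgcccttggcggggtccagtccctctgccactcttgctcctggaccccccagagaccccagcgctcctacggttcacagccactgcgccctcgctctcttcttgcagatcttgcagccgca
Nes: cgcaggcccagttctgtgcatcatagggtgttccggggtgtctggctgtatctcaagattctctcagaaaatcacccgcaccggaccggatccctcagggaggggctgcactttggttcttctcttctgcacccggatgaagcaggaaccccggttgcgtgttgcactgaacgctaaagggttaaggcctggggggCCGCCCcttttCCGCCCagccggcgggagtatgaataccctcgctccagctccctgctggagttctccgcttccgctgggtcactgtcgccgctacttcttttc
Synm: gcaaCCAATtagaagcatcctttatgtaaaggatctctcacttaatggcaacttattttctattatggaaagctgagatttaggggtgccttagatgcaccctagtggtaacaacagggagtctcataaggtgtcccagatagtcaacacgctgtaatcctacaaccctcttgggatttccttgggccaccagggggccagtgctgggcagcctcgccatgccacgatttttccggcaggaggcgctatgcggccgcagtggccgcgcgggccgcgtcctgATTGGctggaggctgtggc
The motifs were the STAT palindrome (TTCNNNGAA), the AP-1 motif (TGANTCA), the nuclear receptor half-site (AGGTCA), the CCAAT box (CCAAT), the TATA box (TATAAA) and the GC box (GGGCGG). A window was found for 6 of the 9 genes, these 4 and those of *Ina* and *Prph*. *Gfap* held 1 nuclear receptor half-site, starting 166 bases before the start on the opposite strand, a motif present in 16.2% of all 33469 windows of this length. *Vim* held 1 GC box, 1 CCAAT box and 1 TATA box, which occur in 33.1%, 37.5% and 14.2% of all windows. *Nes* held 2 GC boxes and *Synm* 2 CCAAT boxes. The STAT palindrome (8.87% of all windows) and the AP-1 motif (7.33%) matched 0 of the 6. A match is a run of letters and no measured binding, and no match says only that these letters are absent from the window.

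RA was followed by higher *Gfap* and *Vim* and by lower light and medium neurofilament chains, while the other 5 filament genes did not pass the test. *Gfap* rose 2.64-fold and *Vim* 1.54-fold, whereas *Nefl* and *Nefm* fell to 0.813 and 0.761 of the vehicle level. The call is an unadjusted p under 0.01 in limma, the threshold of the study's methods, and each gene keeps the largest of the p values from 24 possible couplings of a Cy5 array with a Cy3 array. By it, 2 of the 4 glial genes were higher, against a background of 3.52% of all named genes, and 2 of the 5 neuronal genes were lower, against 0.792%. In either direction the background was 4.31% of named genes and 3.25% of all probes. Log2 fold changes were above 0 for 3 of the 4 glial genes (47.6% of all named genes) and below 0 for all 5 neuronal genes (52.4%). With the largest p of the 24 pairings kept, the number of probes with an adjusted p under 0.05 was 0 of 30367 in limma. Of these probes, 988 had an unadjusted p under 0.01 and 3292 under 0.05, and the filament genes were no exception. Some other settings left probes with an adjusted p under 0.05, as given in the last section. All 9 were well above background on all 8 arrays in both channels, and none of their spots was saturated. In tissue blocks, more cells of a type and more RNA per cell cannot be told apart.

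**Figure D1:**
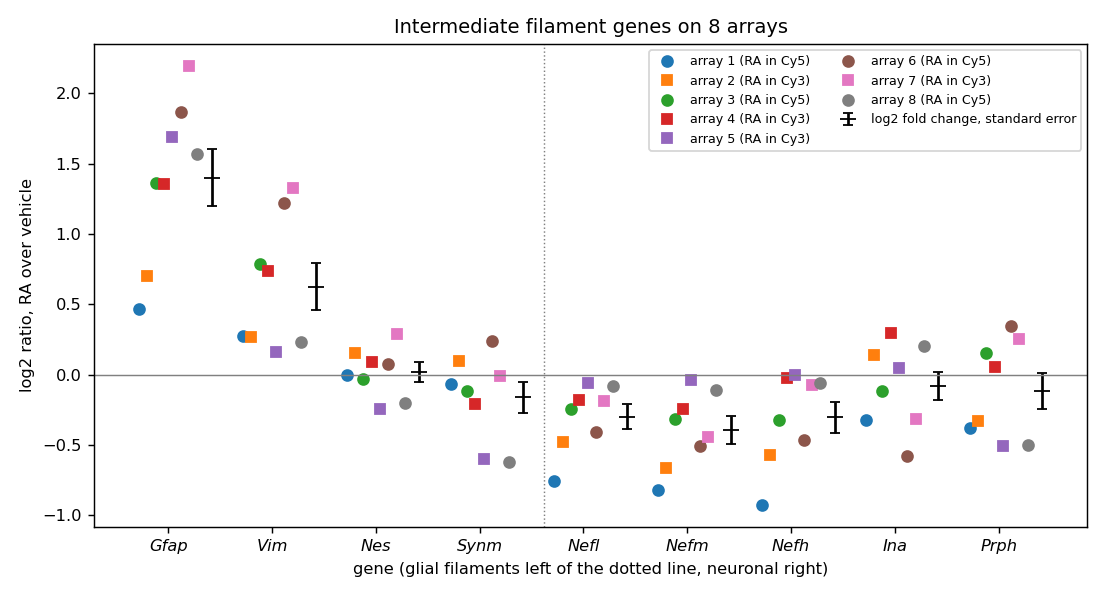
Log2 ratio of RA over vehicle (vertical axis) for the 9 filament genes (horizontal axis) on each of the 8 arrays, with circles for RA in Cy5, squares for RA in Cy3, and the log2 fold change with its standard error in black. All 8 points of Gfap (0.47 to 2.20) and Vim (0.16 to 1.33) lie above 0, and all 8 of Nefl, Nefm and Nefh lie below it.

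*Gfap* encodes glial fibrillary acidic protein, the main filament subunit of mature astrocytes. With RA in Cy5 its log2 ratios were 0.47, 1.36, 1.87 and 1.57 on arrays 1, 3, 6 and 8. With RA in Cy3 they were 0.70, 1.35, 1.69 and 2.20 on arrays 2, 4, 5 and 7. Every array was above 0, arrays 1 and 2 were the lowest of their dye order, arrays 6 and 7 the highest, and the dye orders overlapped. The log2 fold change was 1.40 with a standard error of 0.20 (limma, unadjusted p = 0.000177, adjusted p = 0.222 over all probes). In RA channels the level lay between 10.37 and 12.43 (median 11.62) in log2 intensity, and in vehicle channels between 9.75 and 10.42 (median 10.16). On 7 of 8 arrays the RA level was above the highest vehicle level, the exception being array 1. RA levels were spread over 2.06 log2 units between arrays and vehicle levels over 0.67. The probe is printed 10 times on each array, and the SD of the log2 ratio between its spots was at most 0.13. Among named genes *Gfap* ranked 28 by the size of the rise and 17 by p.

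The slide held arrays 1 to 4 in its first row and arrays 5 to 8 in its second, with both dye orders in each row. *Gfap* was 1.96-fold higher after RA in the first row and 3.56-fold higher in the second. The couples of arrays most alike, given below, all lie within a row. If they hold the same RNA, the rows hold different rats, and row and rat cannot be told apart for any gene. The unadjusted p of *Gfap* in limma was under 0.01 in 24 of 24 pairings, which follows from keeping the largest and adds no support. When the signs of the 4 pair means were flipped in every possible way (exact permutation test, two-sided), p was 0.125 for *Gfap*, the smallest that 4 pairs allow. It gave the same value for *Vim*, *Nefl*, *Nefm* and *Nefh* in every pairing. The test that takes variance to depend on intensity (a variance trend in limma) left *Gfap* with an unadjusted p of 0.027, and none (0) of the 4 called genes kept its call there, with unadjusted p values of 0.0102 to 0.0478.

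*Vim* encodes vimentin, the filament subunit of tanycytes, ependymal cells, immature and reactive astrocytes, endothelium and macrophages. Its log2 ratios were 0.27, 0.79, 1.22 and 0.23 on arrays 1, 3, 6 and 8, with RA in Cy5. They were 0.27, 0.74, 0.16 and 1.33 on arrays 2, 4, 5 and 7, with RA in Cy3. All arrays were above 0 but unequal, with arrays 6 and 7 high, arrays 3 and 4 between, and arrays 1, 2, 5 and 8 low. The log2 fold change was 0.62 with a standard error of 0.17 (limma, unadjusted p = 0.00652, adjusted p = 0.288). RA levels ran from 10.86 to 11.91 (median 11.46) and vehicle levels from 10.58 to 11.15 (median 10.72), so that the groups overlapped, with 6 RA channels above the highest vehicle channel. The low ratios had different levels behind them. On arrays 5 and 8 *Vim* was high in vehicle, at 11.07 and 11.15, and in RA at 11.23 and 11.38. On arrays 1 and 2 it was low in both, with vehicle at 10.59 and 10.60 and RA at 10.86 and 10.87.

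Both dye orders gave *Vim* nearly the same mean log2 ratio, 0.63 for Cy5 and 0.62 for Cy3, and the rise was 1.43-fold in slide row 1 and 1.66-fold in slide row 2. *Vim* was called in 11 of 16 fits that left out an array of each dye order. Its log2 fold change was lowest, at 0.41, without arrays 6 and 7. *Gfap* moved more than *Vim* on every array, by 0.20 to 1.53 on the log2 scale. Arrays 5 and 8 separated the pair most, with high *Gfap* and low *Vim*. After the mean of each dye order was taken off, the ratios of *Gfap* and *Vim* had a Pearson correlation of 0.65 over the 8 arrays, which share rats across dye orders.

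**Figure D2:**
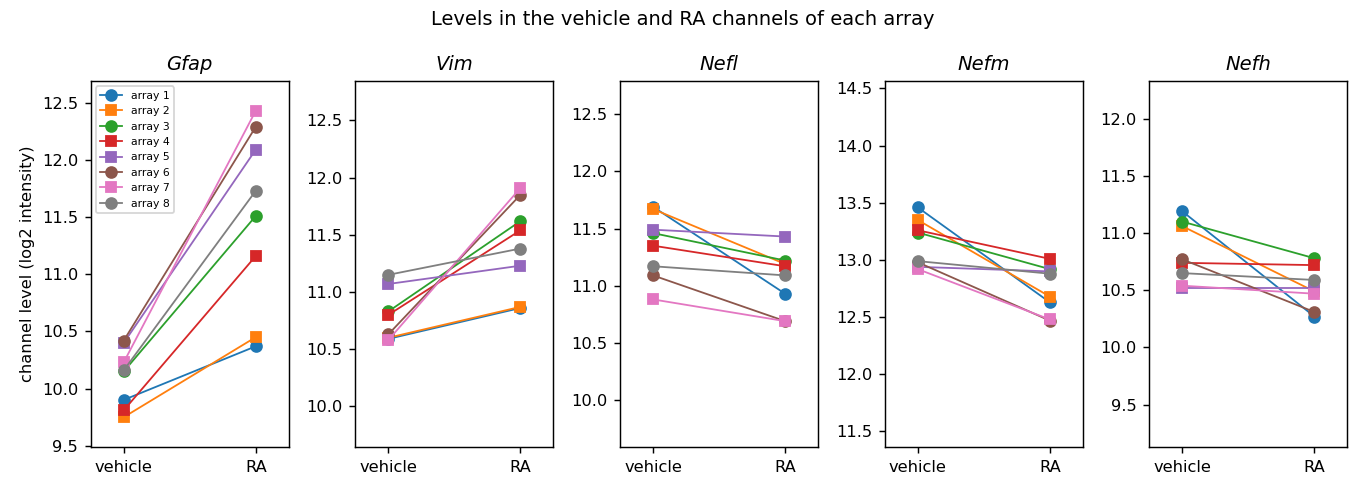
Level in log2 intensity (vertical axis) in the vehicle and RA channels of each array, joined by a line, for 5 filament genes, with circles for RA in Cy5 and squares for RA in Cy3. All panels span the same number of log2 units, so slopes can be compared, and the RA channels of Gfap fan out from 10.37 to 12.43 while its vehicle channels stay between 9.75 and 10.42.

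*Nes* encodes nestin, a filament subunit of neural stem cells that is also found in tanycytes and in vessel walls. Its log2 ratios were -0.0041, -0.03, 0.08 and -0.20 on arrays 1, 3, 6 and 8 and 0.15, 0.09, -0.24 and 0.29 on arrays 2, 4, 5 and 7. The arrays were divided evenly around 0, with arrays 5 and 8 lowest and array 7 highest. Over all arrays the log2 fold change came to 0.02, standard error 0.07 (limma, unadjusted p = 0.821). Another probe of *Nes* gave 0.05 (limma, unadjusted p = 0.646). *Vim* exceeded *Nes* on 8 of 8 arrays, by a mean of 0.61 and by at least 0.12 on the log2 scale.

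*Synm* encodes synemin, which joins vimentin and GFAP filaments to other parts of the cytoskeleton. Its log2 ratios were -0.07, -0.12, 0.24 and -0.62 with RA in Cy5 (arrays 1, 3, 6 and 8) and 0.10, -0.21, -0.60 and -0.0089 with RA in Cy3 (arrays 2, 4, 5 and 7). Arrays 5 and 8 stood lowest in their dye orders and array 6 was the highest. The fitted log2 fold change was -0.16 with a standard error of 0.11 (limma, unadjusted p = 0.189), and without arrays 8 and 5 it was -0.01. Another probe of *Synm* gave 0.07 (limma, unadjusted p = 0.168) but was well above background on at most 3 arrays in either channel. The centred ratios of *Nes* and *Synm* had a Pearson correlation of 0.88 over the 8 arrays.

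*Nefl* encodes the neurofilament light chain, the subunit on which the other chains assemble. With RA in Cy5 its log2 ratios were -0.76, -0.24, -0.41 and -0.08 on arrays 1, 3, 6 and 8. With RA in Cy3 they were -0.48, -0.18, -0.06 and -0.19 on arrays 2, 4, 5 and 7. All were below 0, with arrays 1 and 2 farthest from it and arrays 5 and 8 nearest. The log2 fold change was -0.30 with a standard error of 0.09 (limma, unadjusted p = 0.00982, adjusted p = 0.306). RA levels (10.69 to 11.43, median 11.13) and vehicle levels (10.88 to 11.69, median 11.41) overlapped widely, the difference being one within arrays. The p of *Nefl* lay next to the threshold and passed it in 6 of 16 fits that left out an array of each dye order.

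*Nefm* encodes the medium chain, whose long tail helps to set axon diameter. Its log2 ratios were -0.82, -0.32, -0.51 and -0.11 on arrays 1, 3, 6 and 8 and -0.67, -0.24, -0.04 and -0.44 on arrays 2, 4, 5 and 7. Array 1 was again the lowest and array 5 the nearest to 0. Its log2 fold change was -0.39 with a standard error of 0.10 (limma, unadjusted p = 0.00547, adjusted p = 0.282), the farthest below 0 of the 9 filament genes. It was called in 9 of 16 fits that left out an array of each dye order. The level in RA channels was 12.47 to 13.01 (median 12.78) and in vehicle channels 12.92 to 13.46 (median 13.11). On 7 of 8 arrays the RA level was below the lowest vehicle level, the exception being array 4. The margin was small on some, and on array 3 both levels round to 12.92. By the size of the fall *Nefm* ranked 17 among all named genes, *Nefh* 41 and *Nefl* 46. The *Nefm* probe was printed 10 times per array, with an SD of at most 0.083 between its spots.

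*Nefh* encodes the heavy chain, which is added to axonal filaments as they mature. For it the log2 ratios were -0.93, -0.32, -0.46 and -0.06 with RA in Cy5 (arrays 1, 3, 6 and 8) and -0.57, -0.03, -0.0013 and -0.07 with RA in Cy3 (arrays 2, 4, 5 and 7). All were below 0, though arrays 4, 5, 7 and 8 were close to it. The log2 fold change was -0.31 with a standard error of 0.11, and *Nefh* was not called (limma, unadjusted p = 0.025, adjusted p = 0.374). The mean of the Cy5 arrays was -0.44 and that of the Cy3 arrays -0.17. Its unadjusted p in limma was under 0.01 in 18 of 24 pairings, so its place outside the threshold turned on which arrays carry the same RNA.

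The log2 fold changes of *Nefl* and *Nefh* differed by 0.0065 on the log2 scale, with an SD of 0.11 over arrays, and those of *Nefh* and *Nefm* by 0.09 with an SD of 0.14. The ratio of *Nefm* was below that of *Nefl* on 7 of 8 arrays, with a mean difference of -0.10 on the log2 scale. After the mean of each dye order was taken off, their ratios had Pearson correlations of 0.93 to 0.98 over the 8 arrays. Arrays 1 and 2 carried much of the fall. Without them, the log2 fold changes were -0.19 for *Nefl*, -0.28 for *Nefm* and -0.16 for *Nefh*. In the first row of the slide RA levels were 0.749, 0.701 and 0.726 of vehicle for *Nefl*, *Nefm* and *Nefh*, and in the second row 0.881, 0.826 and 0.902. Neither *Nefl* nor *Nefm* passed the threshold in the second row alone (limma, unadjusted p = 0.092 and 0.0499), and the difference between rows was not tested. Of all named genes, 1.8% were below 0 on all 8 arrays, as were these 3, and 4.07% were above 0 on all 8, as were *Gfap* and *Vim*.

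*Ina* encodes alpha-internexin, the other main neurofilament subunit of central neurons. Its log2 ratios were -0.32, -0.12, -0.58 and 0.20 on arrays 1, 3, 6 and 8 and 0.14, 0.29, 0.04 and -0.32 on arrays 2, 4, 5 and 7. The arrays lay on both sides of 0, unlike those of the 3 chains. Its log2 fold change was -0.08 with a standard error of 0.10 (limma, unadjusted p = 0.44). *Nefm* was lower than *Ina* on 7 of 8 arrays, by a mean of 0.31 on the log2 scale.

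*Prph* encodes peripherin, a filament subunit of peripheral neurons and of few groups of central neurons. On single arrays the log2 ratios were -0.38, 0.15, 0.35 and -0.50 with RA in Cy5 (arrays 1, 3, 6 and 8) and -0.33, 0.05, -0.51 and 0.25 with RA in Cy3 (arrays 2, 4, 5 and 7). Arrays 1, 2, 5 and 8 were below 0 and arrays 3, 4, 6 and 7 above it. Together they averaged -0.12 with a standard error of 0.13 (limma, unadjusted p = 0.397). The arrays that were high for *Prph* were also high for *Vim*, and their centred ratios had a Pearson correlation of 0.96 over the 8 arrays.

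The mean log2 ratio of the 4 glial genes was 0.47 ± 0.29 (SD, n = 8 arrays), and that of *Nefl*, *Nefm*, *Nefh* and *Ina* was -0.27 ± 0.25. These arrays are dye-swaps of 4 rats per group, so that every SD over arrays also counts repeat measurements of the same RNA. The glial mean exceeded the neuronal mean on 8 of 8 arrays. Their difference was 0.87, 0.75, 1.34 and 0.26 on arrays 1, 3, 6 and 8, with RA in Cy5, and 0.70, 0.53, 0.27 and 1.20 on arrays 2, 4, 5 and 7, with RA in Cy3. It was largest on arrays 6 and 7 and smallest on arrays 5 and 8, with a mean of 0.74 ± 0.40, and it is a description with no test. With *Prph* among the neuronal genes the mean difference was 0.71. By slide row it was 0.71 and 0.77, and by the dye of RA it was 0.81 (Cy5) and 0.68 (Cy3).

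The rise of *Gfap* and the fall of the neurofilament chains were not largest on the same arrays. Arrays 1 and 2 had the lowest mean of *Nefl*, *Nefm* and *Nefh*, at -0.84 and -0.57, together with the lowest *Gfap*. Arrays 5 and 8 had the means nearest to 0, at -0.03 and -0.08, and *Gfap* at 1.69 and 1.57. Arrays 6 and 7, with the highest *Gfap*, had means of -0.46 and -0.23, lower than those of arrays 4, 5 and 8. Centred ratios of *Gfap* correlated with those of *Nefl*, *Nefm* and *Nefh* at 0.73, 0.58 and 0.76 over the 8 arrays. For *Vim* the corresponding correlations were 0.10, -0.12 and 0.19.

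**Figure D3:**
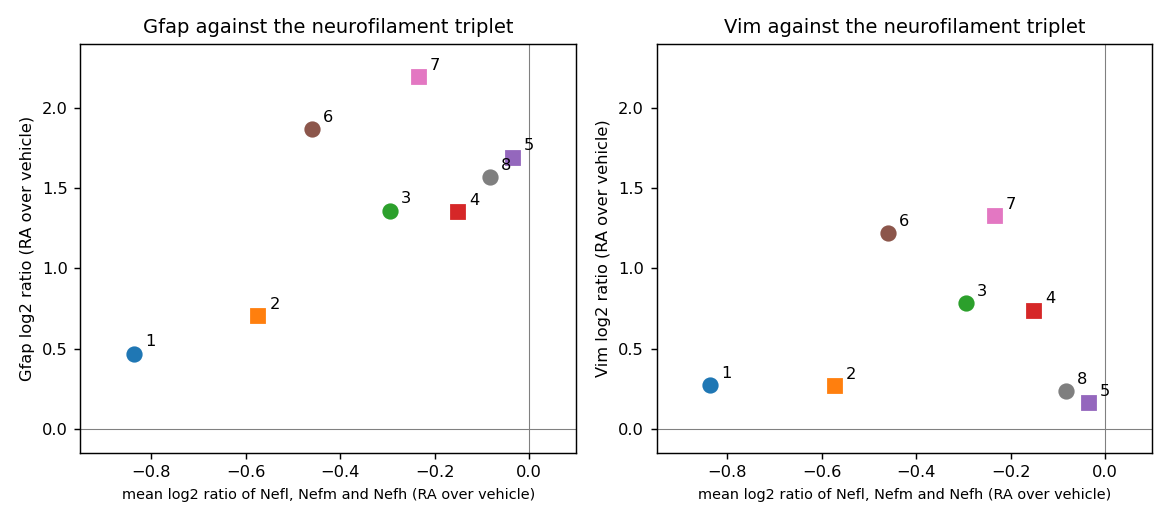
Log2 ratio of RA over vehicle of Gfap (left panel) and Vim (right panel) on the vertical axis against the mean log2 ratio of Nefl, Nefm and Nefh on the horizontal axis, 1 point per array with its number, circles for RA in Cy5 and squares for RA in Cy3. Arrays 1 and 2 combine the lowest Gfap with the lowest neurofilament means, at -0.84 and -0.57, and arrays 5 and 8 combine high Gfap with low Vim.

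From highest to lowest log2 fold change the order was *Gfap*, *Vim*, *Nes*, *Ina*, *Prph*, *Synm*, *Nefl*, *Nefh* and *Nefm*. *Gfap* and *Vim* differed by 0.78, more than the SD of 0.45 of their difference over arrays, and *Vim* and *Nes* by 0.61, more than the SD of 0.37. Each other neighbouring couple in this order differed by less than that SD.

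The same arrays resembled each other in most of these genes. Over 17845 probes, deviations from the mean of the dye order correlated best between arrays 1 and 2 (0.50), 3 and 4 (0.65), 6 and 7 (0.74) and 8 and 5 (0.72), and by at most 0.26 in any other couple of opposite dye order. This is a hint from the data that these couples hold the same RNA, which no label states. Genes of other tissue moved on the same couples. The median log2 ratio of 10 choroid plexus markers was -1.28 and -1.24 on arrays 6 and 7, where *Vim* was highest, and 0.05 to 0.51 on the others, and 6 of the 10 were well above background on all arrays. Over arrays, the mean level of these markers was 7.94 to 9.51 in RA channels and 7.84 to 9.92 in vehicle channels. The median of 19 hypothalamic neuropeptide genes was -0.58 and -0.51 on arrays 5 and 8, where *Vim*, *Nes*, *Synm* and *Prph* were lowest or nearly so, and -0.01 to 0.28 on the others. Their mean level was 11.21 to 11.59 in RA channels and 11.08 to 11.74 in vehicle channels, and 18 of the 19 were well above background on all arrays. The part of these tissue markers in the filament ratios was not tested. Without arrays 6 and 7 the log2 fold changes were 1.19 for *Gfap* and 0.41 for *Vim*, and both were called, while 0 neuronal filament genes were called. Without arrays 8 and 5 both were again called, as were *Nefl*, *Nefm* and *Nefh*.

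Of 14 other intermediate filament genes with a probe, among them nuclear lamins, keratins and the muscle gene *Des*, 0 were called in either direction by limma at p under 0.01, 0 had an unadjusted p under 0.05, and 7 were well above background on all arrays. Their median log2 fold change was -0.02, against -0.0047 over all named genes. The smallest p values were those of *Krt18*, with a log2 fold change of -0.12, and *Lmnb1*, with 0.11 (limma, unadjusted p = 0.095 and 0.102). For this list and those that follow, the shares called over all named genes were 3.52% higher and 0.792% lower.

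Among proteins that link, fold or remove filaments, 2 of 11 genes were higher and 0 lower, with a median of -0.01. *Hspb1*, a small heat shock protein that binds GFAP and vimentin filaments, rose by 2.21 on the log2 scale, from 1.13 to 3.26 on single arrays (limma, unadjusted p = 6.18e-05). *Tgm2*, a crosslinking transglutaminase, rose by 0.60 (limma, unadjusted p = 0.00362). *Cryab*, another small heat shock protein that binds GFAP, had a log2 fold change of -0.20 and was not called (limma, unadjusted p = 0.0391, chosen for mention after its values were seen). Among kinases and phosphatases that act on filaments, 2 of 15 genes were higher and 0 lower. These were the mitotic kinases *Cdk1*, with 1.62, and *Plk1*, with 0.66, both of which phosphorylate vimentin (limma, unadjusted p = 0.00118 and 0.00426).

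Of 13 transcription factors of glial genes, 2 were higher and 1 lower. *Stat3*, which drives *Gfap* in astrocytes, rose by 0.51 on the log2 scale, and *Cebpd*, an acute phase factor, by 1.56 (limma, unadjusted p = 0.00106 and 3e-04). *Olig2*, a factor of the oligodendrocyte lineage, had a log2 fold change of -0.19 (limma, unadjusted p = 0.00617). *Stat3* and *Cebpd* were above 0 on 8 of 8 arrays, as were *Gfap* and 4.07% of all named genes. A link between these factors and *Gfap* was not tested.

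Of 15 general astrocyte markers, 0 were higher and 2 lower, with a median log2 fold change of -0.11. The 2 were *Slc4a4*, a bicarbonate transporter, at -0.28 and *Gja1*, the astrocyte gap junction protein, at -0.22 (limma, unadjusted p = 0.00562 and 0.00697). Their mean level was 12.42 to 12.63 in RA channels and 12.57 to 12.65 in vehicle channels, so that the ranges overlapped. Genes of reactive astrocytes were higher in 10 of 16 cases and lower in 0, with a median of 0.82, a list that does not contain *Gfap* or *Vim*. *Cp* (ceruloplasmin) rose by 2.60, *Timp1* (an inhibitor of metalloproteinases) by 2.19, *Cd44* (the hyaluronan receptor) by 0.84 and *Aspg* (an asparaginase) by 0.81 on the log2 scale (limma, unadjusted p = 1.06e-05, 0.000148, 0.00148 and 0.000162). On single arrays the median of this list was lowest on arrays 1 and 2, at 0.31 and 0.23, where *Gfap* was lowest, and highest on arrays 6 and 7, at 1.12 and 0.99. Without arrays 8 and 5, 5 of the 16 were called.

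Of 12 tanycyte and ependymal markers, 1 was higher and 0 lower, with a median of -0.10. The 1 was *Rarres2*, the gene of chemerin, with a log2 fold change of 0.40 (limma, unadjusted p = 0.00799). Tanycytes, ependymal cells and other cells can contain vimentin, and the part of each cell type in the rise of *Vim* was not tested. Of 11 microglia markers 5 were higher, among them *Tyrobp* at 1.08, *Ptprc* at 1.04, *Aif1* at 0.88 and *Itgam* at 0.87 on the log2 scale, and 1 was lower, *Tmem119* at -0.52 (mentioned after its value was seen). Their median log2 ratio was 0.80 and 0.79 on arrays 6 and 7, where *Vim* was highest. On arrays 5 and 8, where *Vim* was low, it was 0.48 and 0.70. It was 0.31 and 0.32 on arrays 1 and 2, where *Vim* was low too, and 0.09 and -0.12 on arrays 3 and 4. All 11 were well above background on all arrays, with mean levels of 10.05 to 11.18 in RA channels and 9.88 to 10.63 in vehicle channels. Of 11 monocyte and neutrophil markers, 2 were higher, *Lyz2* at 1.30 and *S100a9* at 1.25 on the log2 scale, and 3 were well above background on all arrays. All 11 had a log2 fold change above 0 (47.6% of all named genes), and 7 had an unadjusted p under 0.05 in limma (13.1%). Their mean level was 7.06 to 7.99 in RA channels and 6.80 to 7.16 in vehicle channels. Of 14 endothelial, mural and fibroblast markers 0 were higher or lower (limma, with 2 at an unadjusted p under 0.05), and their median was lowest on arrays 5 and 8, at -0.22 and -0.30, where *Vim* was also low. The smallest p values among them were those of *Tagln*, with a log2 fold change of 0.71, and *Cldn5*, with -0.14 (limma, unadjusted p = 0.0246 and 0.0423).

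Of 13 neuron markers 0 were called by limma at p under 0.01, with 2 at an unadjusted p under 0.05 and a median of -0.09. Log2 fold changes were below 0 for 12 of the 13 (52.4% of all named genes), and the median on single arrays was -0.15 to -0.01. The smallest p values among them were those of *Elavl4*, with a log2 fold change of -0.14, and *Stmn2*, also with -0.14 (limma, unadjusted p = 0.039 and 0.0475). Of 16 other genes of the neuronal cytoskeleton (tubulins, microtubule-associated proteins, motor proteins and others) 0 were called, with 2 at an unadjusted p under 0.05 and a median of -0.03. *Stmn1* and *Map2*, which act on microtubules, had log2 fold changes of -0.15 and -0.14 (limma, unadjusted p = 0.0155 and 0.0407). Of 10 genes of axon injury, 2 were higher, the tubulin *Tubb6* at 0.94 and the stress factor *Atf3* at 0.75 (limma, unadjusted p = 0.000708 and 0.00831). Among 12 oligodendrocyte markers 1 was lower, *Ermn* at -0.30, and the median was -0.15. Of the neuropeptide genes 1 of 19 was lower, *Cartpt* at -0.42. None (0) of the choroid plexus markers was called by limma, and 0 had an unadjusted p under 0.05, *Enpp2* and *Otx2* coming nearest with log2 fold changes of -0.23 and -0.25 (limma, unadjusted p = 0.318 and 0.342). Without arrays 6 and 7, 4 of these 10 markers were called higher, with a median log2 fold change of 0.25. Without arrays 8 and 5, 1 was called lower, with a median of -0.29.

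**Figure D4:**
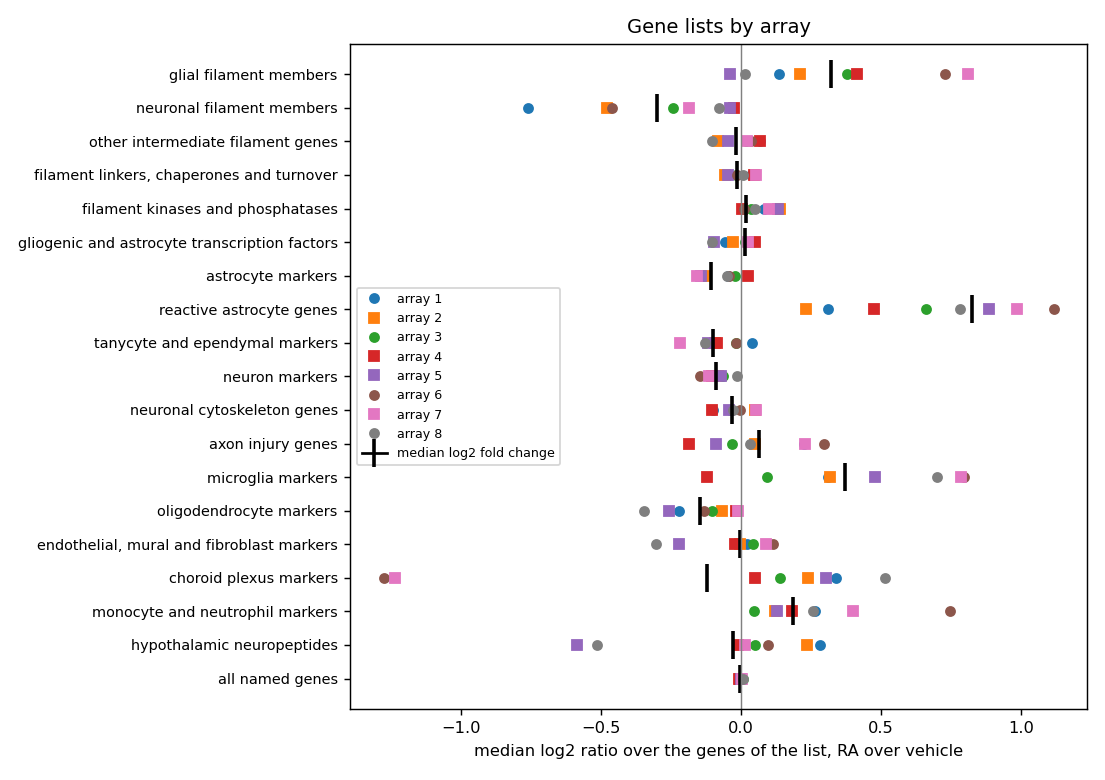
Median log2 ratio of RA over vehicle (horizontal axis) over the genes of each list (vertical axis) on each of the 8 arrays, circles for RA in Cy5, squares for RA in Cy3, with the median log2 fold change as a black bar. The glial filaments (0.32) and the reactive astrocyte genes (0.82) lie right of 0 and the neuronal filaments (-0.30) left of it, and the choroid plexus markers stand apart on arrays 6 and 7, at -1.28 and -1.24.

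The genes most alike to *Gfap* over the 8 arrays, by the Pearson correlation of centred ratios among 1633 genes that varied, were *Gch1* (0.988), *Slc16a1* (0.987), *Elavl1* (0.983), *H19* (0.983) and *Pla1a* (0.975). *H19*, *Pla1a* and *Elavl1* rose, by 2.86, 0.80 and 0.39 on the log2 scale (limma, unadjusted p = 0.000153, 0.000366 and 0.00991), while *Gch1* had a log2 fold change of 0.16 (limma, unadjusted p = 0.345). For *Vim* they were *Slc25a1* (0.974), *Anxa1* (0.969), *Tubb2b* (0.967), *Emp1* (0.965) and *Inhba* (0.963), of which *Anxa1*, a phospholipid-binding protein, rose by 0.72 and *Emp1* by 0.37 (limma, unadjusted p = 0.00593 and 0.00899). For the mean of *Nefl*, *Nefm*, *Nefh* and *Ina* they were *Tfap2b* (0.977), *Tnnc2* (0.969), *Slc39a4* (0.963), *Mab21l2* (0.954) and *Cfi* (0.939), none of which was called. These are the best of many candidates over few arrays that share rats, and are given as a description.

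**Figure D5:**
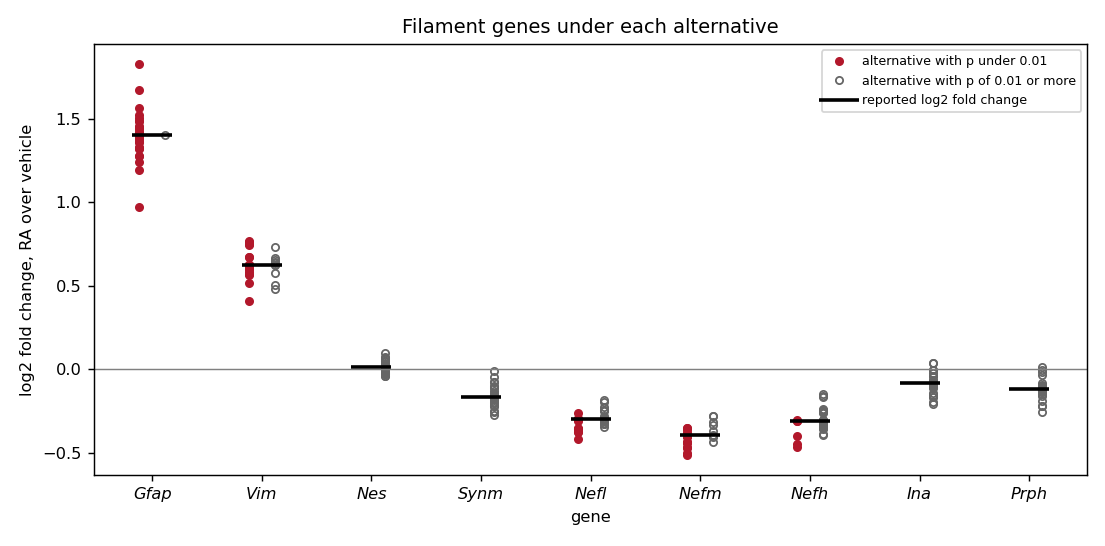
Log2 fold change of RA over vehicle (vertical axis) of each filament gene (horizontal axis) as reported (black bar) and under each alternative way of processing, filled where the unadjusted p was under 0.01 and open where it was not. Gfap stays between 0.97 and 1.83 and Vim between 0.41 and 0.77, while Nes, Ina and Prph lie on both sides of 0.

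Under all 35 alternatives *Gfap* and *Vim* stayed above 0 and *Nefl*, *Nefm* and *Nefh* below it. All 8 arrays already had that sign, so only alternatives that computed the ratios anew could have changed it. *Gfap* kept its call in 34 of the 35 alternatives, *Vim* in 25, *Nefm* in 24 and *Nefl* in 15. Aquantile scaling and the mean of all probes, with 1 probe per gene, repeated the reported fit for these genes and are among those counted. Also counted are the most permissive pairing and the pairing with the fewest calls. Neither could lose a call, since the reported p is the largest of all pairings, and the latter repeated the reported p of these genes. Plain background subtraction or Agilent's own log ratio left *Gfap* as the 1 filament gene called.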

How the data were processed

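The authors deposited, per array, linear Cy3 and Cy5 intensity values as written by Agilent Feature Extraction 10.7.3.1, and Agilent's log10 ratio (Cy5 over Cy3). A series table of log2 ratios, normalised by the authors, was deposited too, and the methods describe limma with loess, averaged probes and the dye-swap as a block. Used as an alternative, these correlated at 0.985 to 1.00 with loess ratios without background correction, their sign already turned on Cy3 arrays.

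Values were recomputed in limma 3.58.1 (R 4.3.3). Median spot intensities were corrected by normexp with an offset of 50, controls and spots marked as outliers (0.913% to 2.42%) were left out, loess was applied within arrays and spots of a probe were averaged. Of 30367 probes, 57.4% to 74.6% were well above background in RA channels and 61.2% to 74.5% in vehicle channels, and 18006 were named by RefSeq accession (GRCr8), the brightest probe standing for a gene. The log ratio was turned so that a positive value means higher after RA. No source says which arrays share RNA, so limma was fitted to 4 pair means in each of 24 pairings and the largest p was kept. P values were adjusted over all probes by Benjamini-Hochberg. Levels are channel intensities after loess and Aquantile, on the log2 scale. The number of arrays limits precision, and p values measure the spread between these rats only.

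Members and lists were chosen with earlier results of these data known. The text names every member, up to 4 genes of each other list with the smallest p among those called (or 2 where none was called), and the 5 genes most alike to *Gfap*, *Vim* and the neuronal mean, with an SD of centred ratios of at least 0.2. Alternatives changed the background correction, ratio, scaling, filters, pairing, dye order, slide row and variance, or left out an array of each dye order.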

Additional observations from a re-analysis of the deposited data

Results flagged for a closer look

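On array 2 the log2 ratio of *Nefh* was -0.57, whereas the other 3 arrays with RA in Cy3 lay between -0.07 and -0.0013, a gap above Dixon's critical value for 4 samples. It was the 1 case among 24 groups of 4 arrays that were searched, and chance gives about 1 in 20. Array 1, of the other dye order, had the lowest *Nefh* ratio of all, at -0.93. The cause was not tested.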

How the results depend on the processing

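All alternatives but the leave-one-out fits of the gene lists were planned. The cause of a change was not tested unless it is given. Aquantile scaling left ratios as they were. Probes called by limma (988 in the reported fit) numbered 237 with plain background subtraction (28821 probes tested), 330 with Agilent's log ratio (168 higher and 162 lower, against 792 and 196), 551 with a variance trend, 1595 with slide row as a block, 1646 with pairs as a random block, 2161 and 2317 with RA in Cy5 or Cy3 alone, 2481 with 8 independent arrays and 3142 under the most permissive pairing. Probes with an adjusted p under 0.05 in limma, 0 in the reported fit, numbered 2 with RA in Cy3 alone and 5 with scaling. They numbered 81 and 608 in slide rows 1 and 2, 238 with pairs as a random block and 575 with slide row as a block. There were 21 without arrays 1 and 2, 935 with 8 independent arrays and 2048 under the most permissive pairing. Plain subtraction, Agilent's log ratio and the trend gave 0. Of the filament genes, 4 in the reported fit, 1 was called with plain subtraction, with Agilent's log ratio or in slide row 2, 2 among bright probes and 0 with the trend, where all 4 had an unadjusted p under 0.05 in limma.

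The calls of *Vim*, *Nefl* and *Nefm* were lost with plain subtraction (log2 fold changes 0.64, -0.31 and -0.40), Agilent's log ratio (0.64, -0.35 and -0.40), the trend (0.62, -0.30 and -0.39) and slide row 2 (0.73, -0.18 and -0.28). That of *Gfap* was lost with the trend (1.40), and those of *Vim* (0.62) and *Nefl* (-0.30) among bright probes. *Nefl* also lost its call without background correction (-0.30), with the deposited values (-0.30), with scaling (-0.31), with outlier spots kept (-0.30) and with RA in Cy3 alone (-0.23), its p lying next to the threshold. *Nefh* was called with independent arrays (-0.31), under the most permissive pairing (-0.31), with RA in Cy5 alone (-0.44) and in slide row 1 (-0.46). *Nes*, never called, turned to -0.027 with Agilent's log ratio, -0.039 with RA in Cy5 alone and -0.019 in slide row 2, and *Ina* to 0.040 with RA in Cy3 alone.

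In 16 leave-one-out fits, 455 (without arrays 8 and 5) to 1111 probes and 1 (without arrays 3 and 4) to 5 filament genes were called. Log2 fold changes were 1.19 to 1.67 for *Gfap*, always called, 0.41 to 0.77 for *Vim*, -0.38 to -0.19 for *Nefl*, -0.50 to -0.28 for *Nefm*, -0.40 to -0.16 for *Nefh*, -0.039 to 0.096 for *Nes*, -0.27 to -0.012 for *Synm*, -0.19 to 0.040 for *Ina* and -0.25 to 0.014 for *Prph*. The glial minus neuronal difference was 0.56 to 0.90. Of the reactive astrocyte genes 5 (without arrays 8 and 5) to 10 were higher, and of the microglia markers 4 to 6. The labels give no replicate number to more than 1 array, so no fit took that number as a block.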
